A study of Mus musculus with 28 samples.

Results

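Atoh1 was added to Pou4f3 in mouse embryonic stem cells, and the RNA response to Pou4f3 with Atoh1 was set against the response to Pou4f3 alone. The comparison was a difference of differences on the log2 scale, the doxycycline effect in the line that carries both factors (iP+A) minus the doxycycline effect in the line that carries Pou4f3 only (iPou4f3). It rests on 8 of the 28 bulk RNA-seq libraries of the series, 2 in each of the groups iPou4f3 No Dox, iPou4f3 Dox, iP+A No Dox and iP+A Dox, chosen by their labels and not by any measured value. The study asked how Atoh1, Gfi1 and Pou4f3, alone and in combination, direct stem cells towards inner ear hair cells or neurons.

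Both lines derive from the A2loxCre embryonic stem cell line, in which a transgene sits at a defined locus behind a doxycycline-responsive promoter. The iPou4f3 cassette encodes MYC-tagged Pou4f3 and the fluorescent protein mVenus, and the iP+A cassette also encodes FLAG-tagged Atoh1, with the proteins joined by self-cleaving peptides. Cells were grown as embryoid bodies, and doxycycline at 2 µg/ml was present for the 48 h before collection at day 6. The Dox libraries came from Venus-positive cells sorted from dissociated embryoid bodies, and the No Dox libraries came from untreated embryoid bodies that were not sorted, so each doxycycline effect holds the sort as well as the factors. The sort is shared by both lines. Replicates are separate clones of a line. The p-values measure the spread between replicates, pooled over all 14 groups of the series, and not that of these lines alone.

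Atoh1 is a proneural basic helix-loop-helix (bHLH) factor that binds E-box sequences and is needed for hair cells, cerebellar granule neurons, Merkel cells and secretory cells of the gut. Pou4f3 is a POU-homeodomain factor that hair cells need in order to mature and survive, and it lies downstream of Atoh1 in the ear. Proneural factors start neuronal differentiation and raise Notch ligands, through which a committing cell restrains its neighbours.

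The transgenes behaved as labelled. In iPou4f3 the normalized counts of Atoh1 were 6.78 and 13.3 without and 14.3 and 20.5 with doxycycline, and in iP+A they were 29.6 and 46.7 without and 14888 and 12816 with it. All libraries but those of iP+A Dox were therefore low for Atoh1 (Entrez ID 11921), and its doxycycline effect was larger in iP+A than in iPou4f3 by 7.72 ± 0.47 log2 units (SE, limma, adjusted p = 1.96e-08). For Pou4f3 the values were 7.93 and 2.22 without and 4694 and 5381 with doxycycline in iPou4f3, and 18.4 and 23.8 without and 12878 and 10868 with it in iP+A. The iP+A Dox libraries held more Pou4f3 RNA than the iPou4f3 Dox libraries, but the untreated iP+A libraries were higher too. The difference of effects was -0.80 ± 0.66 (adjusted p = 0.651), beside 1.23 where the Dox groups were compared directly (adjusted p = 0.0634). The same difference of effects was -1.53 without iPou4f3 No Dox replicate 1, -0.06 without replicate 2 and -0.19 at a pseudocount of 5. In iAtoh1 Dox libraries, which carry no Pou4f3 transgene, Pou4f3 was at 101 and 62.6, beside 20.5 and 13.1 without doxycycline. Transgenic and endogenous RNA of either factor cannot be told apart in these values. Gfi1, the third factor of the study and absent from both cassettes, had 113 and 106 normalized counts in iPou4f3 Dox and 85.9 and 107 in iP+A Dox. These ranges overlap, and the difference of effects was 0.10 ± 0.35 (adjusted p = 0.945). Against No Dox, Gfi1 was called higher in iPou4f3, iP+A or both, so without Gfi1 below means without its transgene.

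All values are normalized counts, that is, estimated read counts that the authors scaled between libraries with DESeq2. The number of reads per library is unknown from the deposited table, and the sums of normalized counts ran from 38449293 to 40380674 over the 8 libraries. Replicate libraries differed by a median of 0.115 to 0.218 log2 units per gene. Genes that respond to dissociation and stress stood apart between the lines. Their summed normalized count was 181858 and 79355 in iPou4f3 No Dox, 59819 and 56055 in iPou4f3 Dox, 178598 and 140302 in iP+A No Dox and 161848 and 146806 in iP+A Dox, so that the iPou4f3 Dox libraries were the lowest of the 8. None of the 16 stress genes tested passed the limma threshold. At an unadjusted limma p under 0.05, 3 were higher and none lower, beside 1420 higher and 1053 lower of all 16837 genes tested. All 16 had a difference above 0 (48.8% of all genes tested did), and the median difference was 1.04. With the Dox libraries compared directly, 5 of the 16 were called higher (4.21% of all genes) and none lower, with a median of 1.38. The part of these genes in the results below was not tested. In bulk RNA, fewer cells of a type and less RNA per cell cannot be told apart.

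Adding Atoh1 to Pou4f3 mainly raised genes. A gene was called where the limma adjusted p was under 0.05 and the log2 difference at least 1.5 in size, and of 16837 genes tested 242 were higher (1.44%) and 29 lower (0.172%), while the median over all genes was -0.01. Without the size threshold 416 genes were higher and 90 lower. Among the 242, the median normalized count was 690.4 in iP+A Dox, 64.3 in iP+A No Dox, 72.3 in iPou4f3 Dox and 57.5 in iPou4f3 No Dox, which describes genes that were low in iPou4f3 with or without doxycycline and in untreated iP+A. For 209 of them the iPou4f3 effect lay within 1.5 log2 units of 0, for 31 it was at least 1.5 and for 2 at or below -1.5. Among the 29 lower genes the median was 88.3 in iP+A Dox, 107 in iP+A No Dox, 337 in iPou4f3 Dox and 106 in iPou4f3 No Dox. Fitting each line and replicate number as a block gave 291 higher and 63 lower genes. A single library weighed on both counts, since without iP+A Dox replicate 1 there were 117 higher and 14 lower genes, 116 and 7 of them among the original calls, though all 242 and 29 kept their direction. The lower count was also 14 without either iPou4f3 Dox replicate, 16 without iPou4f3 No Dox replicate 2 and 44 without iP+A No Dox replicate 1.

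**Figure D1:**
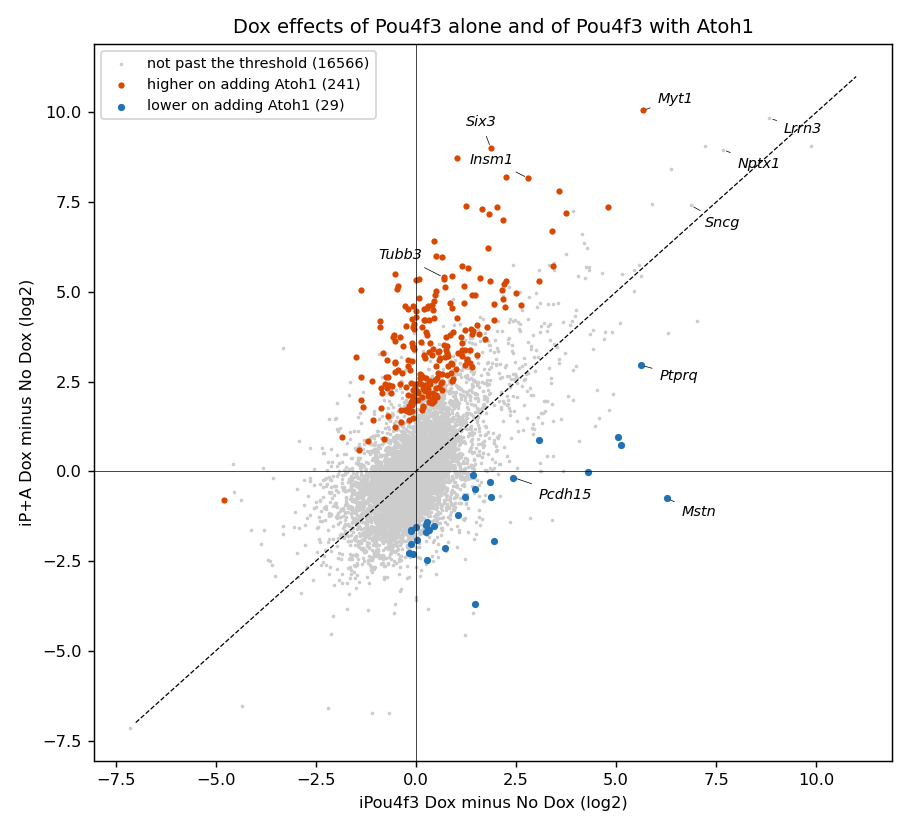
Doxycycline effect in iP+A (vertical axis, log2 units) against that in iPou4f3 (horizontal axis, log2 units), 1 point per gene tested, Atoh1 left out, with the dashed line at equal effects. The 241 genes called higher on adding Atoh1 lie above the line, most of them near 0 on the horizontal axis, and the 29 called lower lie beneath it.

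The untreated lines were not identical. Between iP+A No Dox and iPou4f3 No Dox, 35 genes were higher (0.208%) and 130 lower (0.772%), and 30 of the 242 and 11 of the 29 genes had untreated group means at least 1 log2 unit apart. In a count added after the data were seen, 212 higher and 18 lower genes remained when the untreated means had to lie within 1 log2 unit. The 2 Dox groups were also compared directly. That comparison uses the same Dox libraries as the calls, so it is no separate support. In it, 221 of the 242 and 26 of the 29 were called in the same direction (4.21% and 1.96% of all genes were called higher and lower there).

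Some neuronal transcription factors of the bHLH family rose. This and the other gene lists were chosen with earlier results of these data known. Of 7 proneural and neuronal bHLH genes tested, 4 were higher on adding Atoh1 (1.44% of all genes, and 5 with the replicate block) and none was lower. The median difference was 3.44. The list holds 15 genes, of which 14 were in the table and 7 passed the filter on low values, and a gene such as Nhlh2 passed it only through libraries in which it was high, so the count and the median describe the genes that passed and not the list. The 4 were Nhlh2, Bhlhe22, Neurod1 and Nhlh1, which act in newly formed neurons. The No Dox libraries held 2.26 and 1.12 normalized counts of Nhlh2 in iPou4f3 and 0 and 0.919 in iP+A, and the Dox libraries held 5.34 and 21.5 in iPou4f3 and 229 and 135 in iP+A. The iP+A Dox libraries stood above the other 6 for Nhlh2, and the difference was 4.81 ± 0.90 (adjusted p = 0.00467). For Bhlhe22 the counts were 16.9 and 21.5 in iPou4f3 Dox and 688 and 424 in iP+A Dox, with a difference of 4.56 ± 0.86. Neurod1, a differentiation factor of sensory and granule neurons, had 16.9 and 95.8 in iPou4f3 Dox and 647 and 437 in iP+A Dox, and a difference of 3.84 ± 0.86. Nhlh1 already rose with doxycycline in iPou4f3, from 4.52 and 12.3 to 104 and 126, and reached 2610.2 and 1806 in iP+A Dox, a difference of 3.44 ± 0.73. Neurog1 and Neurog2 had differences of 1.27 and 0.14 that did not pass the threshold, although all 7 genes tested were called higher in iP+A Dox against its own No Dox libraries (4.7% of all genes).

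**Figure D2:**
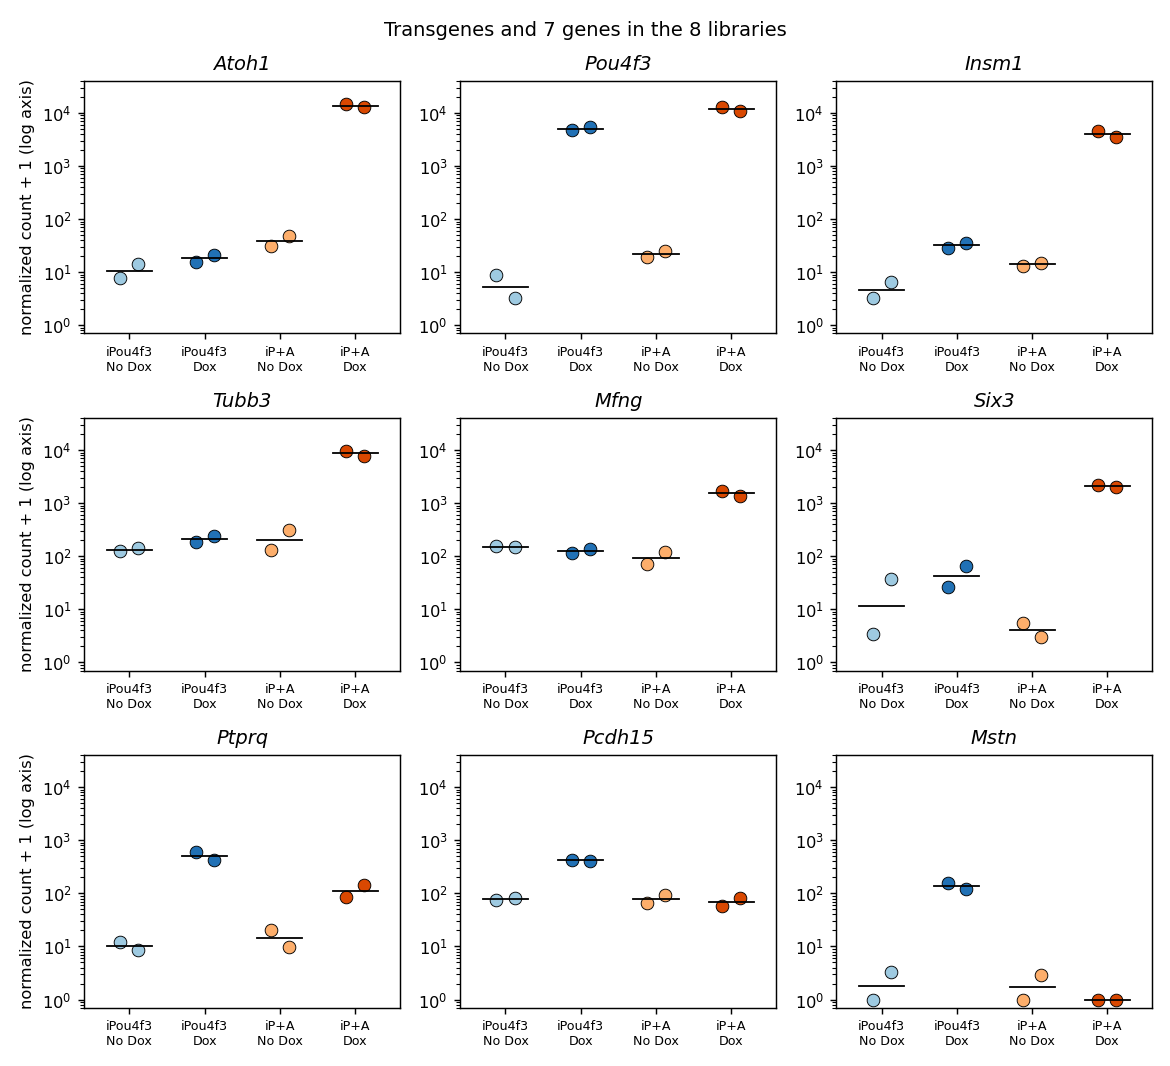
Normalized counts of 9 genes (vertical axes, log scale of count plus 1) in the 8 libraries, with 1 point per library and a bar at each group mean on the log scale. Atoh1, Insm1, Tubb3, Mfng and Six3 are highest in the 2 iP+A Dox libraries, whereas Ptprq, Pcdh15 and Mstn are highest in the 2 iPou4f3 Dox libraries.

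Some genes of neuronal lineages that depend on Atoh1 also rose. Of 12 listed and 10 tested, 4 were higher (1.44% of all genes) and none lower, with a median of 2.81. Of the 4, 2 are also in the bHLH list, Neurod1 and Nhlh1. Barhl1, a homeobox gene of granule neurons and hair cells, had 4.52 and 6.7 normalized counts without and 24 and 20.6 with doxycycline in iPou4f3, and 5.09 and 7.36 without and 1173 and 885 with doxycycline in iP+A. It rose in both lines and was highest in iP+A Dox, and the difference was 5.32 ± 0.67 (adjusted p = 0.000152). Hes6, a Hes relative that favours neurogenesis, had 366 and 399 in iPou4f3 Dox and 5306 and 5909.8 in iP+A Dox, with a difference of 3.62 ± 0.28. Barhl2, at 3.33 ± 1.53 with adjusted p = 0.314, did not pass. The summed normalized count of the list was 6400 and 6061 in iPou4f3 No Dox and 8453 and 9352 in iPou4f3 Dox. It was 2269 and 2441 in iP+A No Dox and 12331 and 11994 in iP+A Dox, so the untreated level was lower in iP+A. With the Dox libraries compared directly, 7 genes of the list were called higher and 1 lower (4.21% and 1.96% of all genes).

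The general neuronal genes formed the largest block. Of 33 tested, 17 were higher on adding Atoh1 (1.44% of all genes, and 18 with the replicate block) and none lower. The median difference was 2.16. By comparison, 5 of the same genes were called higher in iPou4f3 Dox against No Dox (1.47% of all genes). Insm1 (Entrez ID 53626), a zinc-finger factor of neuronal and neuroendocrine precursors, led them. For Insm1, the normalized counts were 2.26 and 5.57 in iPou4f3 No Dox, 27.6 and 35.2 in iPou4f3 Dox, 12.2 and 13.8 in iP+A No Dox and 4579 and 3539.7 in iP+A Dox. The iPou4f3 Dox libraries lay above both untreated groups, and the iP+A Dox libraries far above all the others. Its difference was 5.37 ± 0.69 (adjusted p = 0.000164). Tubb3 (Entrez ID 22152) encodes the neuronal tubulin detected by the Tuj1 antibody. Its normalized count was 123 and 139 without and 184 and 245 with doxycycline in iPou4f3, against 132 and 312 without and 9649 and 7735 with it in iP+A. Only the iP+A Dox libraries were high among the 8, and the difference was 4.71 ± 0.51 (adjusted p = 3.02e-05).

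The microtubule regulator Stmn3 had 2.67 and 7.83 normalized counts in iPou4f3 Dox and 394 and 221 in iP+A Dox, with a difference of 5.08 ± 0.99. Elavl3, an RNA-binding protein of young neurons, had 22.2 and 59.7 against 2360.0 and 1480.1 in the same groups, and a difference of 4.91 ± 0.76. For Scrt1, a zinc-finger repressor of neurons, the counts were 3.56 and 8.8 against 204 and 154, and the difference was 4.89 ± 0.78. All 3 genes were thus at least 1 order of magnitude higher in the iP+A Dox libraries. Myt1 and Myt1l, Scrt2, Map2, Onecut2, Dcx, Rbfox3, Crmp1, Elavl4, Dpysl5, Rtn1 and Celf3 were also called higher, with differences from 1.63 (Celf3, an RNA-binding protein) to 4.39 (Myt1, a zinc-finger factor). Myt1l was not called with the replicate block (adjusted p = 0.0509). Mapt, Ncam1 and L1cam were not called, at 0.80, -0.05 and 0.41. The summed normalized count of the list was 14764 and 13463 in iPou4f3 Dox and 66578 and 52359.8 in iP+A Dox, above 16136 and 12318 in iAtoh1 Dox, the line with Atoh1 alone.

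**Figure D3:**
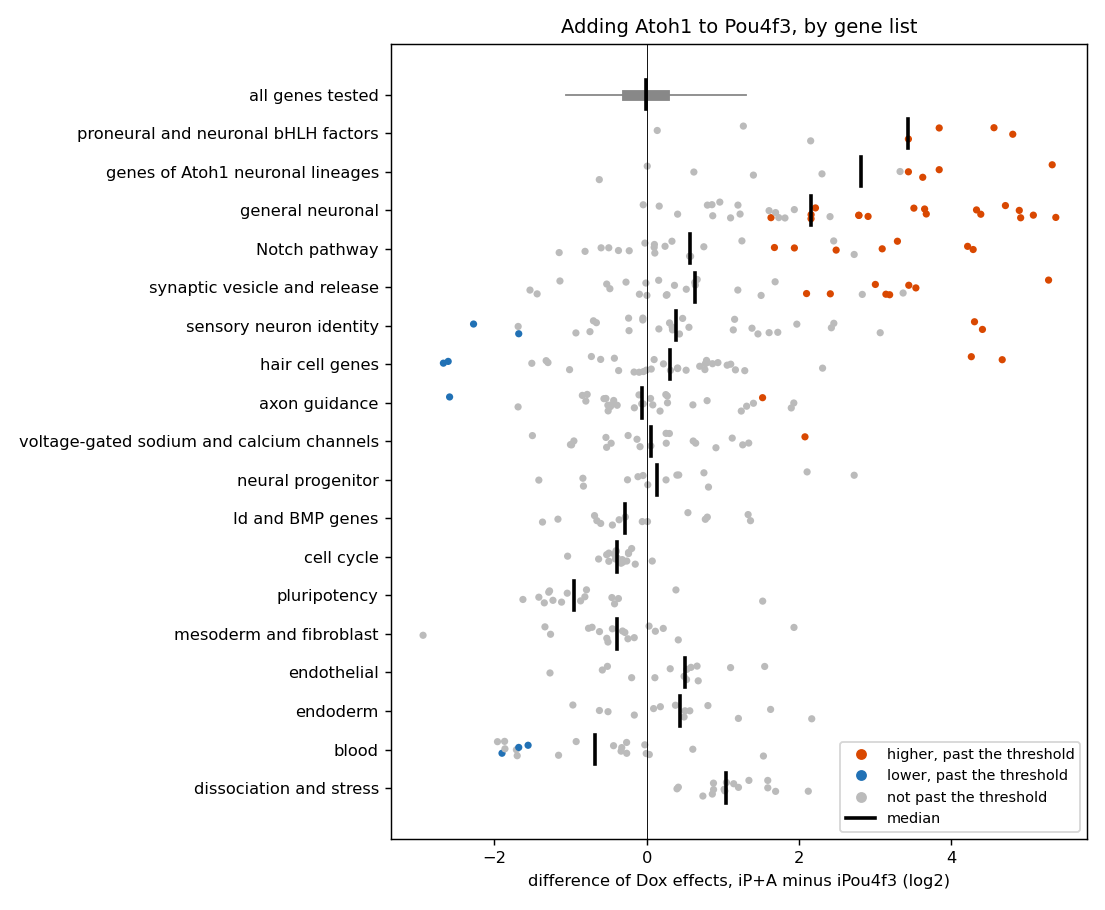
Difference of doxycycline effects, iP+A minus iPou4f3 (horizontal axis, log2 units), for the genes of each list, with 1 point per gene and a black bar at the list's median. Over all genes tested, grey bars span the 25th to 75th percentile (-0.255 to 0.223, thick) and the 5th to 95th (-1.06 to 1.30, thin). These bars show the spread of single genes and not that of a list's median.

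Genes of synaptic vesicles and release were split. Of 30 tested, 8 were higher (1.44% of all genes, and 9 with the replicate block) and none lower, with a median of 0.63. Scg3, a secretogranin of dense-core granules, had 9.02 and 5.58 normalized counts without and 9.79 and 5.87 with doxycycline in iPou4f3 and 9.15 and 8.28 without and 496 and 319 with doxycycline in iP+A, and only the last pair was high. Its difference was 5.28 ± 0.61 (adjusted p = 4.92e-05). The membrane fusion protein Snap25 followed at 3.53 ± 0.85, the vesicular glutamate transporter Slc17a7 at 3.44 ± 0.53 and the granule protein Chgb at 3.19 ± 0.60. Cplx1, Syp, Slc18a2 and Pclo were also called. The GABA genes Slc32a1 and Gad2 were called higher in iPou4f3 and had differences of -1.44 (adjusted p = 0.0538) and -1.53 (adjusted p = 0.265) on adding Atoh1.

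Some Notch ligands and targets and 1 modifier of the receptors rose, while the receptors themselves did not pass the test. Of 25 pathway genes tested, 7 were higher (1.44% of all genes, and 8 with the replicate block) and none lower. The median was 0.56, and no gene of the list was called in iPou4f3 itself. Mfng (Entrez ID 17305), a glycosyltransferase that modifies Notch receptors, had the largest difference. In iPou4f3 the normalized counts of Mfng were 152 and 146 without and 117 and 137 with doxycycline, and in iP+A they were 71.2 and 117 without and 1716 and 1357 with it. The iP+A Dox libraries were the highest, with no overlap with the others, and the difference was 4.29 ± 0.38 (adjusted p = 3e-06). Dll3, a ligand-like protein that acts within the cell, had 42.7 and 209 in iPou4f3 Dox and 2333 and 1983 in iP+A Dox, and a difference of 4.21 ± 0.96. The ligand Dll4 had 121 and 146 without and 106 and 88.1 with doxycycline in iPou4f3, and 58 and 57.9 without and 399 and 442 with it in iP+A. Its difference of 3.29 ± 0.52 thus includes a lower untreated level in iP+A. Heyl, a transcriptional target of Notch, had 6.23 and 13.7 in iPou4f3 Dox against 144 and 79.8 in iP+A Dox, and a difference of 3.09 ± 0.70. The ligands Jag1 and Jag2 and the target Hey1 were also higher, at 2.49, 1.68 and 1.94. The ligand Dll1 and the target Hes5 had values of 2.46 (adjusted p = 0.124) and 2.72 (adjusted p = 0.316) that did not pass (Dll1 did with the replicate block, adjusted p = 0.0465), and the receptors Notch1, Notch2, Notch3 and Notch4 lay between -0.50 and 0.75. Hes1 was at 0.10, and Lfng and Rfng, the other receptor modifiers, were at 1.25 and 0.10 and were not called.

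Other genes with the largest rises had varied roles. Six3 (Entrez ID 20473, chr17:86012948-86031153, plus strand in the mm9 build) is a homeobox gene of the forebrain and eye. The No Dox libraries held 2.48 and 36.2 normalized counts of Six3 in iPou4f3 and 4.47 and 2.02 in iP+A, and the Dox libraries held 25.4 and 64.6 in iPou4f3 and 2202 and 1987 in iP+A. Its untreated iPou4f3 libraries differed widely, but both iP+A Dox libraries lay above all the others, and the difference was 7.14 ± 1.40 (adjusted p = 0.00694). Six3os1, with a difference of 5.67 ± 1.14, overlaps part of Six3 on the other strand, and since counting was run with default settings that take no account of strand, reads from the shared stretch cannot be told apart. Six3os1 was not called without iPou4f3 No Dox replicate 2 (log2 4.75). Draxin (Entrez ID 70433, chr4:147472546-147504807, minus strand), a secreted axon guidance protein, had counts that were tighter among replicates. For Draxin, the normalized counts were 89.1 and 64.7 in iPou4f3 No Dox, 50.7 and 60.7 in iPou4f3 Dox, 35.6 and 50.6 in iP+A No Dox and 1764 and 1391 in iP+A Dox. The other 6 libraries were low and the iP+A Dox libraries high, with a difference of 5.62 ± 0.31 (adjusted p = 7.24e-09).

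Srrm4 (Entrez ID 68955, chr5:116889281-117041826, minus strand) regulates the splicing of microexons in neurons and overlaps an antisense gene, with the same limit on its reads. Its normalized count was 7.86 and 2.35 without and 16.5 and 37.4 with doxycycline in iPou4f3, against 8.96 and 3.43 without and 2439 and 1581 with it in iP+A. The iP+A Dox libraries were the highest, and the difference was 5.96 ± 1.20 (adjusted p = 0.0087), a call that was lost without iP+A Dox replicate 1 or iPou4f3 No Dox replicate 1 (log2 5.65 and 5.26). Mmp24, a membrane metalloprotease, had 4.45 and 5.87 in iPou4f3 Dox and 788 and 474 in iP+A Dox, and a difference of 6.04 ± 0.67. Ppp1r17, a phosphatase inhibitor known from Purkinje cells, had 39.2 and 30.3 against 4392 and 3674, and a difference of 6.15 ± 0.59. Both were low in iPou4f3 Dox and far higher in iP+A Dox. Asb2, part of a ubiquitin ligase of muscle and blood cells, had a difference of 6.42 ± 1.01, Mybpc1, a myosin-binding protein of slow muscle, 5.97 ± 0.83, Pkib, an inhibitor of protein kinase A, 5.55 ± 0.85, and Apba2, a synaptic adaptor protein, 5.50 ± 0.71. The gene of Entrez ID 624918, for which no symbol was used here, rose by 7.69 ± 0.85.

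Short promoter sequences of 6 genes, 4 higher and 2 lower on adding Atoh1, are shown to place the E-boxes that Atoh1 and other bHLH factors bind. The sequences are RefSeq promoters from the GRCm38.p6 table, cut to the 250 bases before the transcript start in that table, which for Six3 lies inside the longer mm9 gene span given above, and each matched the mm9 genome exactly and once. They lie at chr4:147504808-147505057 on the minus strand for Draxin, chr1:173987728-173987977 on the minus strand for Nhlh1, chr5:117041827-117042076 on the minus strand for Srrm4 and chr17:86019924-86020173 on the plus strand for Six3, which were higher, and at chr10:73284365-73284614 on the plus strand for Pcdh15 and chr1:53118234-53118483 on the plus strand for Mstn, which were lower and are described further on. Capitals mark CAGCTG, which reads the same on both strands, or CAGATG read on either strand. Sequences run 5′ to 3′ on the strand of the gene.
Draxin: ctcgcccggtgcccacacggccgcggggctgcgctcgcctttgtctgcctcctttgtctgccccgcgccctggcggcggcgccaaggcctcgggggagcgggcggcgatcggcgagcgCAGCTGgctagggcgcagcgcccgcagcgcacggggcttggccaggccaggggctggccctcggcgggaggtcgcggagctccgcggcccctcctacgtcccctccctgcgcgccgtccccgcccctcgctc
Nhlh1: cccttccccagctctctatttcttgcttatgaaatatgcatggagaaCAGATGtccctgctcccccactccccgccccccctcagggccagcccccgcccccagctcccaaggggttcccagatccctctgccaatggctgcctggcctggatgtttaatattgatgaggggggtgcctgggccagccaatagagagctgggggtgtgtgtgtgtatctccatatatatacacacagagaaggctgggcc
Srrm4: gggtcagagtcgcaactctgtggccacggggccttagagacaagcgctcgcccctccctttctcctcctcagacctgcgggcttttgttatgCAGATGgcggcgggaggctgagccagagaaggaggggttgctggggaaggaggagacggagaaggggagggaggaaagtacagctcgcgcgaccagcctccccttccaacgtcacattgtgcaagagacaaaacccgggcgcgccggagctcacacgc
Six3: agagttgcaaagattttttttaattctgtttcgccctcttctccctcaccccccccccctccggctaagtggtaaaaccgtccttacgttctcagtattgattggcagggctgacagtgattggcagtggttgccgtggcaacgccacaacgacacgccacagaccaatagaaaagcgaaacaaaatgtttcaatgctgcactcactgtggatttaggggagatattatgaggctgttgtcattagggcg
Pcdh15: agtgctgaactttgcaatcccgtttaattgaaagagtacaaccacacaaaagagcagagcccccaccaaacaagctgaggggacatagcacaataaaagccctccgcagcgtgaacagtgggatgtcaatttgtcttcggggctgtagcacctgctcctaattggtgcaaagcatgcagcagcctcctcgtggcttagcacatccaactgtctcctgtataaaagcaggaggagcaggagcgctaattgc
Mstn: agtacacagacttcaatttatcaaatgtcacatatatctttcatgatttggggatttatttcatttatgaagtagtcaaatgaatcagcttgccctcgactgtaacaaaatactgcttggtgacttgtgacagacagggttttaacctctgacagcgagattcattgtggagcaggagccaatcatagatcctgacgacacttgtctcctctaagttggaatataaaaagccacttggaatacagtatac
The Draxin promoter holds 1 CAGCTG, the Nhlh1 and Srrm4 promoters 1 CAGATG each, and the Six3, Pcdh15 and Mstn promoters neither, so that the 6 shown do not part the higher from the lower genes. Over 300-base windows (250 bases before to 50 after the start), 175 of the 242 higher genes matched the RefSeq table with 247 promoters, of which 40.9% held either motif, 26.7% CAGCTG and 19.8% CAGATG. Of the 16559 promoters of genes tested, 27% held either motif, 16.5% CAGCTG and 12.6% CAGATG. Of all 32841 RefSeq promoters, 30.6% held either motif, 16.3% CAGCTG and 17.2% CAGATG. For the 29 lower genes, 20 matched with 22 promoters, of which 18.2% held either motif. A match is a description of the letters in these windows and was not tested as a binding site.

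Sensory neuron genes gave a mixed picture. Of 31 listed and 30 tested, 2 were higher (1.44% of all genes, and 4 with the replicate block) and 2 lower (0.172%), with a median of 0.38, although 11 were called higher in iP+A Dox against No Dox (4.7% of all genes) and 4 in iPou4f3 (1.47%). Pou4f1 (Entrez ID 18996) is the close relative of Pou4f3 that marks sensory neurons. In iPou4f3 the normalized counts of Pou4f1 were 37.3 and 35.7 without and 84.6 and 199 with doxycycline, and in iP+A they were 15.3 and 45 without and 2346 and 1752 with it. It rose with Pou4f3 alone and was highest with both factors, and the difference was 4.41 ± 0.71 (adjusted p = 0.00124). Prph, the intermediate filament peripherin, went from 232 and 203 to 209 and 222 in iPou4f3 and from 785 and 384 to 11274 and 10357 in iP+A, with a difference of 4.30 ± 0.61. The lower genes were Ret, a receptor for glial-derived growth factors, at -2.27 ± 0.44, and Runx1, at -1.68 ± 0.43, which is also a blood gene. Ntrk2 and Ntrk3, which encode neurotrophin receptors, had differences of 3.07 and 1.97 with adjusted p of 0.0525 and 0.25, and both were called with the replicate block (adjusted p = 0.00624 and 0.0301).

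Some hair cell genes rose with doxycycline in both lines, and 4 genes of the list were called on adding Atoh1. Of 37 listed and 35 tested, 10 were called higher in iPou4f3 Dox (1.47% of all genes) and 12 in iP+A Dox (4.7%), each against its No Dox libraries and none lower, while on adding Atoh1 2 were higher (1.44% of all genes) and 2 lower (0.172%), with a median of 0.31. Among the genes with the highest differences was Lhx3, a LIM-homeodomain factor of hair cells and motor neurons, with 1.62 and 0 without and 0 and 1.4 with doxycycline in iPou4f3 and 1.46 and 0 without and 47.9 and 28.8 with doxycycline in iP+A. Only the iP+A Dox libraries were high for Lhx3, and the difference was 4.67 ± 1.09 (adjusted p = 0.0225). Rbm24, an RNA-binding splicing regulator of muscle and hair cells, had 355 and 641 in iPou4f3 Dox and 7329 and 6419 in iP+A Dox, and a difference of 4.26 ± 0.52.

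The lower hair cell genes both encode proteins of the hair bundle. Pcdh15 (Entrez ID 11994) encodes a cadherin of the tip link. The No Dox libraries held 74.1 and 79.5 normalized counts of Pcdh15 in iPou4f3 and 63.5 and 92.5 in iP+A, and the Dox libraries held 429.8 and 409 in iPou4f3 and 56.3 and 81.8 in iP+A. It rose in iPou4f3 Dox, and the iP+A Dox libraries stayed within the range of the untreated ones or just beneath it. The difference was -2.61 ± 0.50 (adjusted p = 0.00624), not called without iP+A Dox replicate 1 (log2 -2.34). Ptprq (Entrez ID 237523) encodes a phosphatase of the stereocilia shaft. For Ptprq, the normalized counts were 11 and 7.62 in iPou4f3 No Dox, 595 and 423 in iPou4f3 Dox, 19.8 and 8.97 in iP+A No Dox and 85.7 and 144 in iP+A Dox. It rose in both lines, more in iPou4f3, where all Dox values lay above those of iP+A. The difference was -2.67 ± 0.63 (adjusted p = 0.0238), and the call was lost when any of 4 libraries was left out (iP+A Dox replicate 1, iP+A No Dox replicate 1, iPou4f3 Dox replicate 1 or iPou4f3 No Dox replicate 2, log2 from -2.43 to -2.14).

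Other hair cell genes called higher in both lines had differences that did not pass the threshold, with intervals of varying width. Otof, the synaptic calcium sensor of hair cells, had 231 and 414 in iPou4f3 Dox and 205 and 136 in iP+A Dox, with a difference of -1.01 and a 95% interval of -2.45 to 0.42. The interval was -1.05 to 0.72 for Ush1c, a scaffold protein of the hair bundle, and -1.70 to 2.14 for Loxhd1. Myo7a, the unconventional myosin used as a hair cell marker, was called in neither line, with 1956 and 1909.9 without and 1785 and 1888 with doxycycline in iPou4f3, 1962 and 2331 without and 1823 and 1969 with doxycycline in iP+A, and an interval of -0.47 to 0.27. A rise or fall of 1 log2 unit is therefore outside the interval for Myo7a. For Otof a fall of 1 lies inside the interval and a rise of 1 outside it. Tmie, a part of the transduction complex, was at 2.31 with adjusted p = 0.0509, and Atp2b2, a calcium pump of the bundle, at 1.29 with adjusted p = 0.214.

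**Figure D4:**
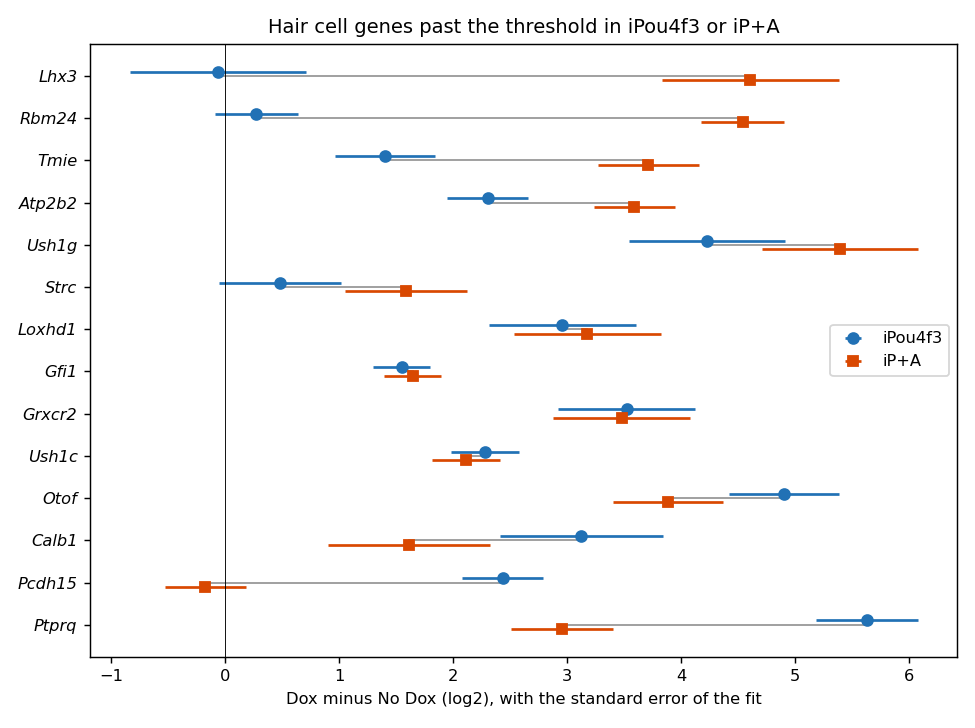
Doxycycline effect (horizontal axis, log2 units, bars the SE of the fit) in iPou4f3 and in iP+A for the 14 hair cell genes past the threshold in either line. Ptprq and Pcdh15 lie further right in iPou4f3, Lhx3 and Rbm24 further right in iP+A, and Ush1c, Loxhd1 and Grxcr2 lie close together in both.

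The 29 lower genes fell into distinct patterns. For 10 of them the effect in iPou4f3 was at least 1.5, so that a rise in iPou4f3 was smaller or missing in iP+A. Mstn (Entrez ID 17700, chr1:53118507-53124923, plus strand), the TGF-beta family protein that limits muscle growth, was the clearest. Its normalized count was 0 and 2.23 without and 156 and 121 with doxycycline in iPou4f3, against 0 and 1.84 without and 0 and 0 with it in iP+A. Both iP+A Dox libraries were listed at 0, as were 2 of the 4 untreated ones, and only the iPou4f3 Dox libraries were high. With a floor of 3 counts per library, iPou4f3 Dox was at least 46.2-fold higher than iP+A Dox, and the fitted difference of -7.02 ± 0.94 (adjusted p = 0.000256) depends on the pseudocount. Cyp26b1 (Entrez ID 232174) encodes an enzyme that degrades retinoic acid. In iPou4f3 the normalized counts of Cyp26b1 were 104 and 109 without and 909 and 904 with doxycycline, and in iP+A they were 145 and 152 without and 252 and 298 with it. It was high in iPou4f3 Dox and rose less in iP+A Dox, with a difference of -2.20 ± 0.46 (adjusted p = 0.0109), not called without iP+A Dox replicate 1 (log2 -2.08). Ceacam9 (-4.41) and the guidance gene Sema3d (-2.59) belong to the same 10, but the call for Ceacam9 was lost without any of the 8 libraries, and in the fit with the replicate block (adjusted p = 0.0537), and that for Sema3d without 7 of them. The others included Myh2, Avpr1a and Il2rb.

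For 14 of the 29, the iPou4f3 effect was under 1.5 and the iP+A effect was at or below -1.5. They included the erythroid gene Gata1, and Ren2 and Slc25a21. Ren2, a renin gene whose reads may be shared with its near-identical copy Ren1, was at -2.74 ± 0.68 and was not called without 5 of the 8 libraries, and Slc25a21, a mitochondrial carrier, was at -2.21 ± 0.58 and was not called without any of them. Of 20 blood genes tested, 3 were lower (0.172% of all genes) and none higher, with a median of -0.68, and 8 were lower with the replicate block. Against the untreated libraries of the same line, 9 blood genes were called lower in iP+A (2.58% of all genes) and 1 in iPou4f3 (0.606%). Their summed normalized count was 530909 and 414478 in iPou4f3 No Dox, 293266 and 279035 in iPou4f3 Dox, 115196 and 133526 in iP+A No Dox and 17954 and 38297 in iP+A Dox. The untreated iP+A libraries thus held less blood RNA than any iPou4f3 library, and the iP+A Dox libraries the least. Gata1, an erythroid transcription factor, had 5513 and 4046 in iPou4f3 No Dox, 4467 and 5009.6 in iPou4f3 Dox, 1285 and 1494 in iP+A No Dox and 341 and 649 in iP+A Dox, with a difference of -1.56 ± 0.41 (adjusted p = 0.0422). The part of blood cell content in these results was not tested.

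Most genes called higher in iPou4f3 Dox were also called higher in iP+A Dox. Both effects hold the sort and doxycycline as well as Pou4f3, and the part of each in the overlap was not tested. Of 248 genes higher in iPou4f3 Dox, 200 were also called higher in iP+A Dox (80.6%, beside 4.7% of all genes). That is 25.3% of the 792 higher in iP+A. Of the 248, 242 had an iP+A value above 0 (46.4% of all genes did). For the genes lower in iPou4f3 (102, or 0.606% of all genes), 26 were also called lower in iP+A (25.5%), which is 5.98% of the 435 lower there, and 94 had an iP+A value below 0 (53.5% of all genes did). The 102 fell to between 15 and 67 without any 1 of the 4 iPou4f3 libraries (15 without No Dox replicate 1, 48 and 56 without Dox replicates 1 and 2, 67 without No Dox replicate 2), and the 435 to 233 without iP+A Dox replicate 1. Lrrn3, a leucine-rich repeat protein of neurons, had the largest iPou4f3 effect of the genes chosen by level. The No Dox libraries held 0 and 0 normalized counts of Lrrn3 in iPou4f3 and 0 and 0 in iP+A, and the Dox libraries held 523 and 394 in iPou4f3 and 1003 and 835 in iP+A. It was listed at 0 in all 4 untreated libraries and was high in both Dox groups, with a difference of 1.01 ± 1.25 (adjusted p = 0.79). The synaptic pentraxin Nptx1, the long noncoding RNA Miat and gamma-synuclein (Sncg) had differences of 1.29, 1.86 and 0.55 with adjusted p of 0.373, 0.313 and 0.697. Lrrtm4, a synaptic adhesion protein, was at -2.85 with adjusted p = 0.593. The 3 largest falls in iPou4f3 by the same rule were Cd3d, Mogat1 and Fam71a, of which Cd3d and Fam71a switch between 0 and over 50 normalized counts among untreated libraries, and their differences were -0.02, 3.97 and 3.58, with adjusted p of 0.999, 0.165 and 0.109.

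Whether Atoh1 had the same effect on top of Pou4f3 as it had alone was tested against the line iAtoh1, which carries Atoh1 only and shares no library with the comparison. Of the 242 genes higher on adding Atoh1 to Pou4f3, 125 were also higher in iAtoh1 Dox against No Dox (51.7%). That is 25.7% of the 486 genes higher there (2.89% of all genes). Of the 242, 214 had an iAtoh1 value above 0 (48.9% of all genes did). Of the 29 lower genes, 12 were also lower in iAtoh1, which is 2.83% of its 424 lower genes (2.52% of all genes). In the test of the difference itself, 39 genes had a larger effect on top of Pou4f3 (0.232%) and 32 a smaller one (0.19%), and 109 and 63 with the replicate block. These counts depend on single libraries. The higher count was 11 without iP+A Dox replicate 1 or iAtoh1 Dox replicate 2, 17 to 25 without iP+A Dox replicate 2, iP+A No Dox replicate 1, iPou4f3 Dox replicate 1 or 2 or iPou4f3 No Dox replicate 1, and 59 and 64 without iAtoh1 Dox replicate 1 and iP+A No Dox replicate 2. The lower count was 7 without iAtoh1 Dox replicate 2, 9 and 10 without iPou4f3 No Dox replicate 1 and iP+A Dox replicate 1, and 15 to 19 without iP+A Dox replicate 2, iP+A No Dox replicate 1 or either iPou4f3 Dox replicate. Without iAtoh1 No Dox replicate 1 the counts were 26 higher and 29 lower, so which of the directions held more genes also turned on 1 library. Of the 39, 31 were among the 242, and of the 32, 3 were among the 29 (Mstn, Ntn5 and Pcdh15).

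Six3 and Pou4f1 were not called in iAtoh1 and were higher on adding Atoh1 to Pou4f3. Six3 had 29.8 and 8.06 without and 11 and 9.34 with doxycycline in iAtoh1, an effect of -0.58, and the difference from the effect on top of Pou4f3 was 7.72 ± 1.72 (adjusted p = 0.0496). Pou4f1 had 68.4 and 31.8 without and 68.5 and 34.1 with doxycycline, an effect of 0.05, and a difference of 4.36 ± 0.87 (adjusted p = 0.0253). Mmp24 differed by 6.42 ± 0.82, Scg3 by 4.71 ± 0.74, Scrt1 by 4.75 ± 0.95 and Cacna1b, the N-type calcium channel of presynaptic terminals, by 3.32 ± 0.57 (adjusted p = 0.00111, 0.00533, 0.0265 and 0.0135). Among the genes with a smaller effect on top of Pou4f3 were Notum, an inhibitor of Wnt signalling (-3.81 ± 0.71), Fam155a (-3.50 ± 0.61) and Stra6, a receptor for retinol-binding protein (-3.30 ± 0.68). None of the 7 bHLH genes differed past the threshold between these settings, and of the 25 Notch pathway genes Lfng, another glycosyltransferase of Notch receptors, had a smaller effect on top of Pou4f3 (1.25, not called) than in iAtoh1 (4.22), a difference of -2.97 ± 0.66 (adjusted p = 0.0484). Insm1 had an effect of 3.53 in iAtoh1, and the difference was 1.84 ± 0.84 (adjusted p = 0.395).

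**Figure D5:**
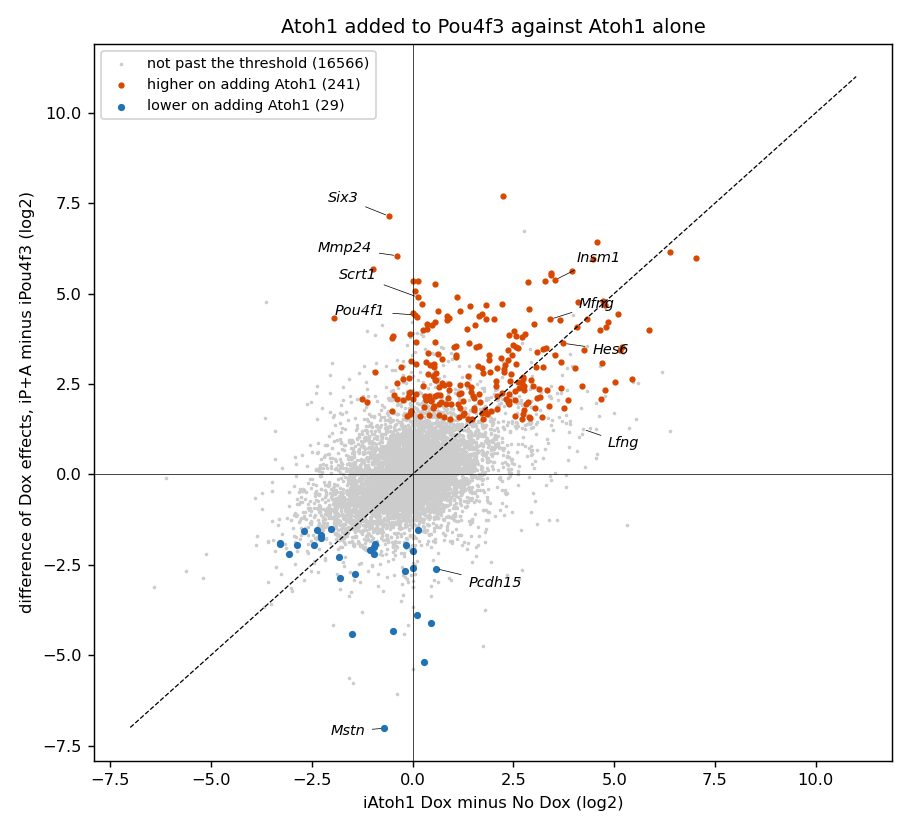
Effect of adding Atoh1 to Pou4f3 (vertical axis, log2 units) against the doxycycline effect of Atoh1 alone in iAtoh1 (horizontal axis, log2 units), 1 point per gene tested, Atoh1 left out, with the dashed line at equal effects. Six3, Mmp24 and Pou4f1 sit high near 0 on the horizontal axis, and Mstn and Pcdh15 sit low.

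The effect of adding Atoh1 was also compared with its effect when Gfi1 was present too, that is, iGPA (Gfi1, Pou4f3 and Atoh1) minus iG+P (Gfi1 and Pou4f3). In that setting 714 genes were higher (4.24%) and 280 lower (1.66%). Of the 242, 146 were also higher there (60.3%), which is 20.4% of the 714. Of the 29 lower genes, 10 were also lower and 2 were called higher. Tested directly, 41 genes had a larger effect without Gfi1 (0.244%) and 124 a smaller one (0.736%), or 86 and 215 with the replicate block. The higher count was 14 to 27 without any 1 of 9 of the 16 libraries (both iP+A Dox, both iPou4f3 Dox, iPou4f3 No Dox replicate 1, iGPA Dox replicate 1, iGPA No Dox replicate 2, iG+P Dox replicate 2 or iG+P No Dox replicate 1), and the lower count 54 to 80 without any 1 of 10 (the same but for iGPA Dox replicate 2 in place of replicate 1, with iG+P No Dox replicate 2). Tubb3 rose by 4.71 without Gfi1 and had a value of 0.72 with it, a difference of 3.99 ± 0.72 (adjusted p = 0.011). Its counts were 163 and 132 in iG+P Dox and 278 and 222 in iGPA Dox, both groups far under the iP+A Dox libraries. For Pou4f1 the difference was 4.34 ± 1.01 (adjusted p = 0.0363).

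Pcdh15 went in opposite directions, lower on adding Atoh1 to Pou4f3 and higher on adding it to Gfi1 and Pou4f3. Its counts were 432 and 592 in iG+P Dox and 2863 and 2099 in iGPA Dox, where the last pair was the highest, and the effect there was 1.95. The difference between the settings was -4.56 ± 0.71 (adjusted p = 0.00665). Cyp26b1 differed by -3.30 ± 0.65 (adjusted p = 0.0172) and Dner, a Notch-related protein of neurons and hair cells, by -5.45 ± 0.99. Ptprq was lower in both settings, at -2.67 and -5.01.

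The remaining lists held few calls (1.44% of all genes were called higher and 0.172% lower). Of 31 axon guidance genes, 1 was higher (Sema6d, 1.52 ± 0.18, or 2 genes with the replicate block) and 1 lower (Sema3d), with a median of -0.07, and of 21 voltage-gated sodium and calcium channel genes Cacna1b alone was higher (2.08 ± 0.47). Of 12 LIM-homeodomain genes Lhx3 was called, and of 8 genes tested of the 9 listed for secretory gut and Merkel cells Fcgbp, a mucin-associated protein, was higher at 3.39 ± 0.81. No gene was called among 14 neural progenitor genes (median 0.13), 15 Id and BMP genes (-0.28), 12 cell cycle exit genes (0.07), 14 endothelial genes (0.51), 14 of the 15 listed endoderm genes (0.43), 18 mesoderm and fibroblast genes (-0.38) or 4 Y-linked genes with Xist (-0.27). With the replicate block 1 neural progenitor gene was called higher (Fabp7, adjusted p = 0.0316). At an unadjusted limma p under 0.05, these 7 lists held from 0 to 3 genes in each direction. Of all 16837 genes tested, 1420 were higher and 1053 lower at that level. Among 19 cell cycle genes none was called, 9 were lower and none higher at an unadjusted p under 0.05, and the median was -0.39, with every gene but Mcm2 below 0 (51.1% of all genes were). Among 16 pluripotency genes none was called on adding Atoh1 (1 was higher and none lower at an unadjusted p under 0.05) and the median was -0.96, while 9 were lower in iP+A Dox against No Dox, among them Nanog (-2.41) and Sox2 (-2.34).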

How the data were processed

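Messenger RNA libraries were made with a KAPA kit and sequenced on a HiSeq 4000. Per the study's methods and the submitters' processing notes, the authors trimmed reads with cutadapt, quantified transcripts of the mm9 build with kallisto, collapsed them to gene level through tximport, and scaled libraries with DESeq2. Tool versions are not given in the sources used here. The deposited table holds log2 values of the normalized count plus 1, with 19421 genes (Entrez IDs) in 28 libraries, 2 replicates in each of 14 groups. Whole reads could not be recovered from these values, so no count test was run, the depth in reads is unknown, and no interval for counting error is given.

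Groups were taken from the sample labels. The deposited log2 values (pseudocount 1) of all 28 libraries were fitted with limma 3.58.1 with a trend in R 4.3.3, 1 mean per group and 14 residual degrees of freedom, for the 16837 genes that reached 10 normalized counts in 2 or more libraries. Differences of groups were tested with Benjamini-Hochberg adjustment over all genes, two-sided, and called at an adjusted p under 0.05 and a log2 size of at least 1.5. The script was tested on simulated data with known changes. The 22 gene lists held 420 genes, of which 417 matched the table, and members and lists were chosen with earlier results of these data known. Named genes were the transgenes and Gfi1, the 12 largest rises and 10 largest falls past the threshold with at least 50 normalized counts in a group and non-overlapping effects, the largest iPou4f3 effects, up to 4 called genes per list, the 5 largest in each direction against iAtoh1, and list members a sentence needed. Other genes were chosen after their values were seen, and some genes that the rule names are not reported here.

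Replicates of the same number are, per the series record, clones of 1 line, and the deviations from the group means of same-numbered Dox and No Dox libraries correlated across genes by 0.103 to 0.246 in all 7 lines (0.231 in iPou4f3, 0.246 in iP+A), so a fit with line and number as a block was run beside the fit without it. Other pseudocounts, filters, scalings, variance models and thresholds, and leaving out each library, were also tried. Promoters came from the RefSeq table of GRCm38.p6, and coordinates are 1-based in mm9 (NCBIM37).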

Additional observations from a re-analysis of the deposited data

Results flagged for a closer look

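The results below stand out because the effect of adding Atoh1 to Pou4f3 differed, by a test of the difference itself (limma, adjusted over all genes), from the effect of Atoh1 in another setting. Groups of 2 are too small to test whether a library lies apart from its group.

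Against Atoh1 alone (iAtoh1), 39 genes had a larger effect on top of Pou4f3 and 32 a smaller one. The 5 largest positive differences were those of Six3 (7.72 ± 1.72), Six3os1 (6.65 ± 1.40), Mmp24 (6.42 ± 0.82), Golga7b (6.28 ± 0.87) and the gene of Entrez ID 624918 (5.45 ± 1.05), all in log2 units with SE. Six3 and Six3os1 overlap in part on opposite strands, where their reads cannot be told apart. Golga7b went from 45.9 and 19.9 normalized counts without doxycycline to 23.6 and 33.6 with it in iPou4f3, from 3.88 and 5.97 to 143 and 83.1 in iP+A and from 21.1 and 17.7 to 5.81 and 3.07 in iAtoh1, so its untreated level was lowest in iP+A. The 5 largest negative differences were those of Mstn (-6.32 ± 1.15), Notum (-3.81 ± 0.71), Fam155a (-3.50 ± 0.61), Stra6 (-3.30 ± 0.68) and Pcdh15 (-3.19 ± 0.62). Notum had 1351 and 2102 normalized counts in iAtoh1 Dox and 136 and 107 in iAtoh1 No Dox, beside 924 and 1143 in iP+A Dox and 406 and 468 in iPou4f3 Dox.

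Against the addition of Atoh1 to Gfi1 and Pou4f3, 41 genes had a larger effect without Gfi1 and 124 a smaller one. Draxin (1.80 ± 0.44), Hes6 (1.75 ± 0.40) and Slc18a2 (2.44 ± 0.52) were among the 41, and Zic1 (-3.30 ± 0.77), Qpct (-3.50 ± 0.60) and Pecam1 (-2.53 ± 0.51) among the 124.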

How the results depend on the processing

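No called gene that the naming rule picked changed direction under any alternative. Without iAtoh1 No Dox replicate 1, the genes with a larger and a smaller effect than in iAtoh1 numbered 26 and 29, against 39 and 32 in the main analysis. Comparing the Dox libraries directly turned the sign of Pou4f3 (-0.80 to 1.23, called in neither), of 1 of the 242 higher genes (241 kept it), and of list medians, Id and BMP from -0.28 to 0.43, pluripotency from -0.96 to 0.06, endothelial from 0.51 to -0.61, axon guidance from -0.07 to 0.06, LIM-homeodomain from -0.02 to 0.16 and cell cycle exit from 0.07 to -0.05. With the replicate block, 63 genes were lower on adding Atoh1, 109 and 63 had a larger and a smaller effect than in iAtoh1, and 86 and 215 than with Gfi1, and of the genes named for adding Atoh1 it changed the calls given above and that of Myh2 (adjusted p = 0.0537). With only the groups compared in the fit, which leaves fewer residual degrees of freedom, 158 genes were higher and 15 lower on adding Atoh1, 192 lower in iP+A, 117 higher and 18 lower in iPou4f3, 226 lower in iAtoh1, 19 and 14 had a larger and a smaller effect than in iAtoh1, and 44.9% of the higher genes were also higher in iAtoh1, and Six3, Six3os1, Ptprq, Ren2, Ret and Sema3d were no longer called. At a log2 size of 1, 48 genes were lower on adding Atoh1, 790 lower in iP+A, 157 lower in iPou4f3, and 775 higher and 715 lower in iAtoh1. With a pseudocount of 5, 59 genes had a larger effect than in iAtoh1 (the cause was not tested). Some of the lower genes lost their call elsewhere too, Slc25a21 with no filter (adjusted p = 0.0511) and without trend (0.0734), Sema3d with no filter (0.0585), quantile normalization (0.051) and without trend (0.0592), Ceacam9 at a pseudocount of 0.5 (0.132) and Ren2 in the direct comparison of Dox libraries (-1.25, adjusted p = 0.0682). The direct comparison gave 709 higher and 330 lower genes. Requiring untreated groups within 1 log2 unit, added after the data were seen, gave 18 lower genes.

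Leaving out 1 library gave 117 to 224 higher and 14 to 44 lower genes on adding Atoh1, 11 to 64 and 7 to 44 against iAtoh1, and 14 to 45 and 54 to 145 against the addition with Gfi1. It gave 233 to 528 lower genes in iP+A and 15 to 67 in iPou4f3, and shares of 44.4 to 53.0% also higher in iAtoh1 and 75.5 to 86.8% also higher in iP+A. A lone library was then assumed to vary like the other groups. Quantile normalization gave 250 higher and 39 lower genes and 75th-percentile rescaling 238 and 32, with all 271 calls keeping their sign. The calls were made on the same libraries, so a kept sign, here or with a library left out, is no separate support.

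Read depth is unknown, and a difference that missed the threshold is not shown to be absent. Different clones of 2 lines were compared, so line and transgene cannot be told apart, beyond the subtraction of each line's untreated libraries.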

Other observations

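Other genes of neuronal signalling among the 242 were named after their values were seen. The nicotinic acetylcholine receptor genes Chrna5, Chrna3 and Chrnb4 lie next to each other on chromosome 9 (chr9:54828687-54896351 in mm9) and were all higher, at 3.17 ± 0.63, 4.31 ± 0.94 and 3.29 ± 0.78 log2 units. Chrna3 had 13.3 and 38.1 normalized counts in iPou4f3 Dox and 684 and 362 in iP+A Dox, and Chrnb4 38.7 and 94.4 against 757 and 605. Chrnb2, a subunit encoded on another chromosome, was higher as well, at 2.97 ± 0.31. All 3 clustered genes were also called higher in iAtoh1, and Chrnb2 was not. Some glutamate receptor genes were among the 242, with no list of such genes tested, namely Grm4 (2.71 ± 0.26), Grin2c (2.34 ± 0.47), Grid1 (1.83 ± 0.42) and Grik3 (1.83 ± 0.36). Grm4 had 38.7 and 37.1 without and 136 and 167 with doxycycline in iPou4f3 and 51.8 and 53.5 without and 1525 and 1224 with doxycycline in iP+A.

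The potassium channel genes Kcnc4 (4.07 ± 0.73), Kcng1 (3.46 ± 0.80), Kcnh3 (3.10 ± 0.71) and Kcnk3 (3.06 ± 0.63) were called higher, and potassium channels as a group were not tested. Among the 242 were also some genes known for processing peptide hormones, with no list of such genes tested, namely Cpe, a carboxypeptidase, at 2.24 ± 0.33, Pcsk2, a prohormone convertase, at 2.15 ± 0.47 and its chaperone Scg5 at 3.04 ± 0.44. Hdc, which makes histamine, rose with Pou4f3 alone from 39.5 and 35.7 to 363 and 474 and reached 3490.1 and 3096 in iP+A Dox, a difference of 2.29 ± 0.57. Some genes known from striated muscle were also among the 242, with no list of such genes tested, namely Ttn (4.16 ± 0.97), Mybpc1 (5.97 ± 0.83) and Myo18b (1.94 ± 0.47), whereas Myh2, a skeletal muscle myosin, was among the 29 lower genes. Ttn had 464 and 1054 without and 389 and 602 with doxycycline in iPou4f3, 264 and 234 in iP+A No Dox and 4264 and 2226 in iP+A Dox. Rag1, which cuts DNA in lymphocyte receptor genes, was listed at 0 in all libraries but iP+A Dox, where it had 33.5 and 46.2, at least 13.3-fold higher than iPou4f3 Dox with a floor of 3 counts per library.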
